A study of Bos taurus with 6 samples.

Results

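Scattered CpGs unmethylated in sperm and methylated in both somatic cell types were selected on their methylation in 6 bovine libraries. In all, 6648 of 1521652 eligible autosomal CpGs (0.437%) belonged to this set. A CpG was eligible when each library covered it with 5 to 500 reads and its mean coverage was below 50. It qualified when methylation, taken from the summed reads of the 2 libraries of a cell type, was below 20% in sperm and above 80% in monocytes and in fibroblasts. Of the 54741 qualifying CpGs, those with at most 2 other qualifying CpGs within 500 bp on either side were called scattered. The other 48093 (87.9%) were called clustered. Among the scattered CpGs, 2155 had no other qualifying CpG within 500 bp, 2154 had 1 and 2339 had 2. Just outside this limit, 2283 qualifying CpGs had 3.

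The study asked how the methylome of bull sperm differs from that of somatic cells. Methylation was measured by reduced representation bisulfite sequencing (RRBS), which reads short MspI fragments (40 to 290 bp) and therefore samples CpG-rich stretches. Sperm came from commercial frozen semen straws of Holstein bulls, monocytes from the blood of Holstein cows by selection on the surface protein CD14, and fibroblasts from ear skin of Holstein females, grown in culture. Each of the 2 libraries of a cell type came from a different animal. No treatment was applied to any group. Cell type therefore cannot be told apart from sex, from culture in the case of fibroblasts, or from the 12 PCR cycles of the monocyte libraries against 14 in the others. The labelled cell types were not checked against marker genes, since the tables hold positions on the UMD3.1 assembly and no annotation of that assembly was used here. Coverage summed over CpGs ranged from 45884839 to 78890776 per library, where a read counts at every CpG it covers.

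In mammals, methyl groups on the cytosines of CpG dinucleotides are copied at each cell division by the maintenance methyltransferase DNMT1, so that a cell type keeps its pattern. The germ line erases this pattern early in its development and writes a new one by de novo methylation before sperm form. Neighbouring CpGs usually share a state, and unmethylated CpGs mostly lie together in CpG islands and regulatory elements. A single CpG that differs from the CpGs around it is uncommon.

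Most scattered CpGs were not single unmethylated sites in methylated surroundings, as far as their eligible neighbours show. The rule itself allows at most 2 other qualifying CpGs within 500 bp: 2155 had none, 2154 had 1 and 2339 had 2. Of the 6332 with an eligible neighbour that did not qualify, 72.1% had such neighbours below 20% on average in sperm. For 26.8% this mean was between 20% and 80%, and for 1.09% it was above 80%. Another 316 had no such neighbour. A neighbour low in sperm that does not qualify misses 1 or both somatic limits by definition, so that its somatic values are not informative. Its low sperm value is not independent either, since the same libraries chose the scattered CpGs and neighbours can share reads with them. From 501 to 5000 bp, sperm was lower around the nearest scattered CpG than at the same distances around the nearest clustered CpG. Of the 6332 scattered CpGs with a non-qualifying neighbour, 8 had such neighbours all above 80% in all 3 cell types. Neighbours above 80% on average in all 3 were found for 0.758% of scattered and 0.129% of clustered CpGs. Of the single neighbours, 2.42% around scattered and 2.6% around clustered CpGs were above 80% in all 3, against 25.5% of all non-qualifying CpGs.

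The values that selected the set are given first, as a description. In sperm, the median methylation of the 6648 scattered CpGs was 5.56% in replicate 1 and 5.56% in replicate 2. In monocytes, it was 95.7% in both replicates. In fibroblasts, it was 91.3% in replicate 1 and 91.7% in replicate 2. Each cell type thus gave nearly the same median in both animals, with the fibroblasts nearest to the 80% limit. The medians of clustered CpGs were 0% (both sperm libraries), 100% (both monocyte libraries), and 96% and 95.8% (fibroblasts). Scattered CpGs therefore lay closer to the limits in every library. The sperm libraries read 41.3% and 39% of scattered CpGs as fully unmethylated, and 60.7% and 56.5% of clustered CpGs. Complete methylation was read at 27.5% and 24.2% of scattered CpGs in the fibroblast libraries, and at 44.4% and 39.9% of clustered CpGs.

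**Figure D1:**
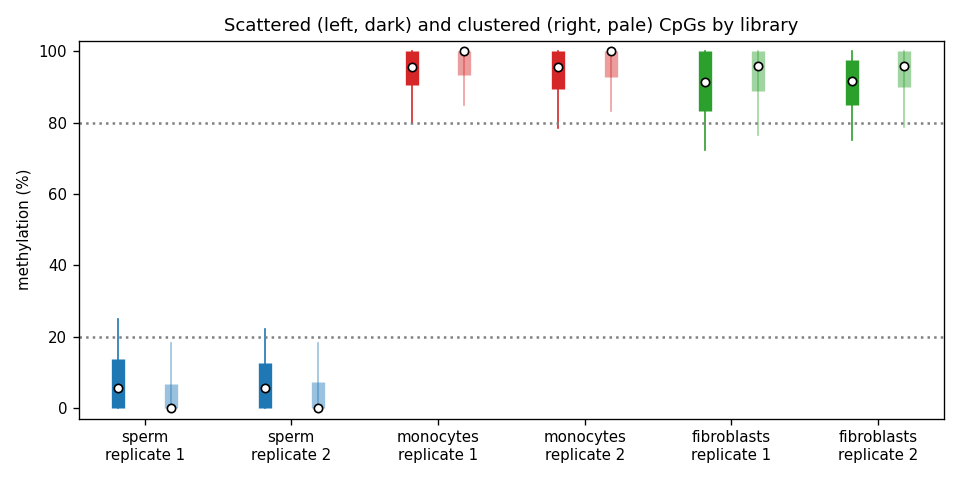
Methylation (%, y axis) of the scattered CpGs (left, dark) and clustered CpGs (right, pale) in each of the 6 libraries (x axis). White points are medians, thick bars the middle 50% of CpGs and thin lines the 5th to 95th percentiles, and the dotted lines mark 20% and 80%. The thick bars of the scattered CpGs start lower in the somatic libraries and end higher in the sperm libraries than those of the clustered CpGs.

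Many scattered CpGs were near a limit or had too few reads to be placed firmly on one side of it. In 43.9% of them at least 1 cell type was within 5 points of its limit, against 18.3% of clustered CpGs. The median scattered CpG had 35 summed reads from the sperm libraries, 31 from the monocyte libraries and 42 from the fibroblast libraries. The 95% Wilson interval, which covers counting error only, lay wholly below 20% in sperm for 45.4% of scattered CpGs. It lay wholly above 80% for 53.4% in monocytes and for 37.6% in fibroblasts. All 3 intervals were inside the limits at 732 scattered CpGs (11%), against 16298 clustered CpGs (33.9%).

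The values next to each limit were as close as the counts allow. The 2 scattered CpGs nearest to the sperm limit were at 19.8%, at position 74797614 of chromosome 8 and position 5291167 of chromosome 1. The 2 CpGs just outside it, positions 51288032 and 51288080 of chromosome 7, were at 20%. Just inside the monocyte limit, positions 32912819 of chromosome 27 and 21876411 of chromosome 15 were at 80.3% and 80.4%. Just outside it, positions 107010246 of chromosome 6 and 58441655 of chromosome 13 were both at 80%. The 2 scattered CpGs nearest to the fibroblast limit, position 68735600 of chromosome 10 and position 30026128 of chromosome 7, were at 80.2%. Positions 137036 of chromosome 14 and 105913077 of chromosome 7, just outside it, were at 80%.

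The rule sums the reads of both animals, so that 1 library may lie beyond a limit. In 1470 scattered CpGs (22.1%), at least 1 sperm library was at 20% or more. At least 1 fibroblast library was at 80% or less in 2036 (30.6%), and at least 1 monocyte library in 822 (12.4%). All 6 libraries were inside the limits at 3127 scattered CpGs (47%) and at 35362 clustered CpGs (73.5%). Between the 2 animals, the median difference was 5.21 points for sperm, 5 points for monocytes and 7.24 points for fibroblasts. For clustered CpGs it was 2.13, 3.75 and 5.19 points. Both sets show the largest difference between animals in fibroblasts.

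The rule was then applied to 1 replicate of each cell type, and the CpGs it chose were measured in the other replicate, which it had not used. In the replicate 2 libraries 3.6% of all eligible CpGs met the 3 limits (sperm below 20%, monocytes and fibroblasts above 80%), and in the replicate 1 libraries 3.51%. Of 7221 scattered CpGs chosen on replicate 1, 3322 (46%) met them in replicate 2. Of 7619 chosen on replicate 2, 3279 (43%) met them in replicate 1. Both shares lay far above those of all eligible CpGs. Clustered CpGs chosen in the same way met the limits in 76.2% and 74.8% of cases. With 1 library per cell type these shares have no test.

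Each limit was also read on its own in the held-out libraries. Of the scattered CpGs chosen on replicate 1, 67.2% were above 80% in fibroblasts of replicate 2, 77.5% were below 20% in sperm and 87.7% were above 80% in monocytes. In the reverse direction the shares were 66.7% for fibroblasts, 71.5% for sperm and 89.9% for monocytes. Over all eligible CpGs the shares had the same order, at 33.6% for fibroblasts, 47.4% for sperm and 48.8% for monocytes in replicate 2, and 32.8%, 47.1% and 49.4% in replicate 1. Clustered CpGs also met the fibroblast limit least often, in 86.4% and 84% of cases. The order is thus that of the background, and only the level of the shares was higher for scattered CpGs. The held-out medians stayed inside the limits, with sperm at 7.14% and 8.33%, monocytes at 95% and 95.2%, and each fibroblast library at 88.2%. With a minimum of 10 reads in place of 5, the shares were 54% and 50.2%, so that deeper CpGs met the limits again more often.

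**Figure D2:**
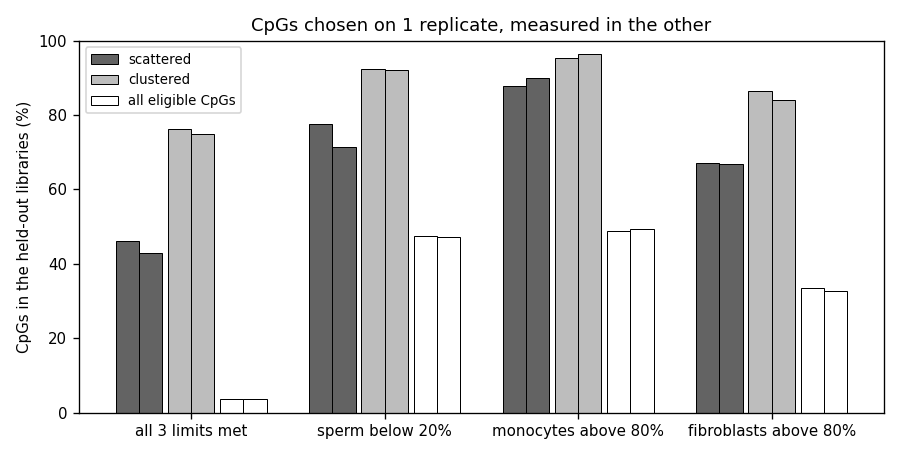
Share of CpGs (%, y axis) meeting all 3 limits or a single limit (x axis) in the libraries that did not choose them, for scattered, clustered and all eligible CpGs. The left bar of each pair was chosen on replicate 1 and measured in replicate 2, and the right bar the reverse. Scattered CpGs meet all 3 limits in 46% and 43% of cases, between the clustered and all eligible CpGs.

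CpGs that failed the coverage rule in at least 1 library could not enter the selection. They were read in the same libraries, however, and neighbouring CpGs usually share a state. The selection itself therefore favours low sperm values near scattered CpGs. Within 500 bp of scattered CpGs, CpGs outside the rule with 5 to 500 reads had a mean methylation of 16% and 14.6% in the sperm libraries. In the monocyte libraries the means were 74.6% and 73.3%. In the fibroblast libraries they were 58.9% and 59.9%. Each mean rests on 20158 to 28101 CpGs. Sperm was lowest, fibroblasts were intermediate, monocytes were highest, and the libraries of different cell types did not overlap. Over all autosomal CpGs outside the rule, the sperm means were 55.6% and 57.7%, the monocyte means 65.1% and 63.6%, and the fibroblast means 50% and 50.8%.

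Sperm (15.3% ± 0.979, SD, n = 2) was thus below the somatic libraries (66.7% ± 8.42, n = 4) by a difference of -51.4 points. The exact two-sided permutation test over libraries gave p = 0.0667, the smallest that 2 against 4 libraries allow, so that the design cannot reach 0.05. The same libraries chose the scattered CpGs, so that this test is not independent of the choice. Over all CpGs outside the rule the sperm mean was 56.6% and the difference was -0.724 points (p = 0.8, same exact test). Flanking CpGs within a fragment share reads with the scattered CpG. At 291 to 500 bp, beyond the longest fragment, the means were 16.7% in sperm and 56.2% in somatic libraries, a difference of -39.6 points (exact permutation p = 0.0667).

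Fibroblasts were below monocytes in these surroundings. The mean was 59.4% ± 0.675 in fibroblasts and 74% ± 0.9 in monocytes (SD, n = 2 each), a difference of 14.5 points that exceeded the spread between animals. The exact permutation p of 0.333 is the smallest that 2 against 2 libraries allow. Over all CpGs outside the rule the same difference was 14 points, so that the gap was close to that of all CpGs of this kind. Among all eligible CpGs the somatic cell types lay closer together. Their means there were 53.7% and 53.4% (monocytes, replicates 1 and 2) against 45.9% and 46.4% (fibroblasts).

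Close to the selected CpG, the surroundings of scattered CpGs differed less between sperm and somatic cells than those of clustered CpGs. Within 500 bp, the flanks of clustered CpGs had sperm means of 9.34% and 9.39%, monocyte means of 87.2% and 86.7%, and fibroblast means of 75.4% and 77%. The flanks of scattered CpGs were higher by 5.89 points in sperm (mean of 2 libraries) and differed by -14.9 points in the somatic libraries (mean of 4). This makes a difference of 20.8 points between sperm and somatic libraries (exact two-sided permutation over libraries, p = 0.0667, the smallest possible). At 291 to 500 bp the same value was 5.86 points, and sperm was there lower around scattered CpGs (17.4% and 15.9%) than around clustered CpGs (20.2% and 19.9%). The rule keeps CpGs with few qualifying neighbours, so that the contrast near the CpG is not free of the selection.

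Farther out the order turned around. At 501 to 1000 bp, mean sperm methylation was 20.4% around scattered CpGs and 36.1% around clustered CpGs. At 1001 to 2000 bp it was 27.9% against 58.2%, and at 2001 to 5000 bp 40.9% against 69.1%. Both sperm animals showed this, with 28.3% and 27.4% around scattered CpGs and 58.3% and 58.1% around clustered CpGs at 1001 to 2000 bp. At these distances, sperm methylation was thus lower around scattered CpGs than around clustered CpGs. Distance was taken to the nearest CpG of a set, and clustered CpGs have more qualifying CpGs nearby by the rule. The profiles therefore do not measure how far a low stretch extends. Sperm was higher around scattered CpGs only close by, at 16.3% against 9.82% at 101 to 200 bp. At 201 to 500 bp it was slightly lower around scattered CpGs, at 16.2% against 17.2%. The median number of eligible CpGs within 500 bp was 7 for scattered and 23 for clustered CpGs. The 2 profiles therefore compare surroundings of unlike density of eligible CpGs. In the somatic libraries the 2 kinds of surroundings differed by only -2.58 points at 1001 to 2000 bp and by -0.435 points at 2001 to 5000 bp.

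The same profile was read away from clustered CpGs. When only CpGs over 5000 bp from every clustered CpG were read, sperm was at 20.4%, 27.1% and 39.1% in the same 3 distance ranges. At 1001 to 2000 bp, the sperm-minus-somatic difference was -32.1 points around scattered CpGs and -4.35 points around clustered CpGs. The difference between these was -27.8 points (exact permutation p = 0.0667, the smallest possible), and -26.1 points away from clustered CpGs. In all 18 such tests, 9 distance ranges with and without the CpGs near clusters, p and its Benjamini-Hochberg adjusted value were 0.0667. These distance ranges were chosen after the profile within 500 bp had been seen.

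**Figure D3:**
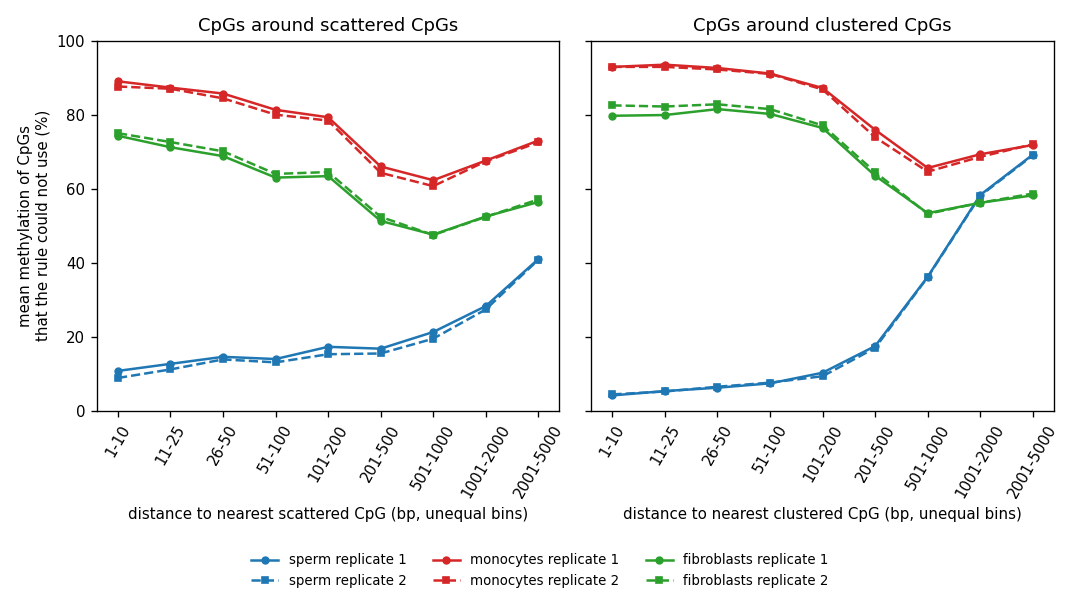
Mean methylation (%, y axis) of CpGs outside the rule against their distance (bp, unequal ranges, x axis) from the nearest scattered (left) or clustered CpG (right), with 1 line per library. Around scattered CpGs the sperm lines rise slowly, to 28.3% and 27.4% at 1001 to 2000 bp, whereas around clustered CpGs they reach 58.3% and 58.1%.

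Eligible neighbours that did not qualify were sorted by the limits they missed, and each missed at least 1 by definition. A neighbour of this kind lay within 500 bp of 6332 scattered CpGs (95.2%), with a median of 6 per scattered CpG. Fewer than 3 eligible CpGs of any kind lay within 500 bp of 799 scattered CpGs (12%), which therefore could not have been clustered at this coverage. Of the 36513 neighbours, 77.7% missed the fibroblast limit, 49.8% the monocyte limit and 27.2% the sperm limit. Over all 1466911 eligible CpGs that did not qualify, these shares were 69.4%, 51.9% and 54.7%, so that the monocyte share was near the background, the fibroblast share somewhat above it and the sperm share below it. Missing both somatic limits with sperm below 20% was the most frequent pattern (42.1%), followed by missing the fibroblast limit alone (25.9%) and the sperm limit alone (16.7%). The first of these shares was 42.1% over all non-qualifying CpGs too, where the others were 2.59% and 27.8%. CpGs below 20% in all 3 cell types made up 14.8% of the neighbours and 37.1% of all non-qualifying CpGs. The neighbours had a sperm median of 4.05%, a monocyte median of 80.6% and a fibroblast median of 58.3%. Around clustered CpGs, where 37523 neighbours did not qualify, 22.7% missed both somatic limits alone and 39.5% the fibroblast limit alone.

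Averaged over the neighbours of each scattered CpG, methylation was below 20% in sperm for 4564 of the 6332 (72.1%) and above 80% in sperm for 69 (1.09%). For clustered CpGs these shares were 79% and 0.134%. In monocytes the neighbours' mean was above 80% for 60.4% of scattered CpGs. In fibroblasts it was above 80% for 17.6% and between 20% and 80% for 77%. The largest class, 2218 scattered CpGs (35%), had neighbours below 20% in sperm, above 80% in monocytes and between these limits in fibroblasts. In a further 1677 (26.5%), neighbours were below 20% in sperm and between the limits in both somatic cell types. Neighbours were below 20% in all 3 cell types for 203 (3.21%). These values are part of the data that set the rule, and carry no test.

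**Figure D4:**
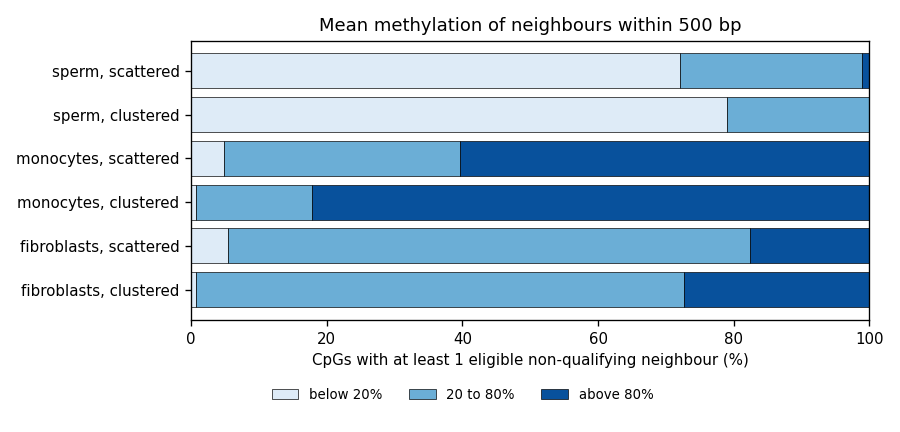
Share of CpGs (%, x axis) by the mean methylation of their eligible, non-qualifying neighbours within 500 bp, for each cell type, and for scattered and clustered CpGs. Sperm neighbours are below 20% for 72.1% of scattered CpGs, and fibroblast neighbours lie between 20% and 80% for 77%.

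The 8 scattered CpGs whose neighbours were all above 80% in all 3 cell types are single dips in sperm by a strict measure. It also asks for methylated neighbours in both somatic cell types, and its count for clustered CpGs is not given. By the neighbours' mean in sperm alone, 69 scattered CpGs (1.09%) had methylated neighbours. The clearest is position 52803673 of chromosome 22, with 5 neighbours that were between 93.3% and 97.9% in sperm. Sperm had 0% methylation over 13 and 12 reads, whereas the monocyte libraries had 85.7% and 100% and the fibroblast libraries 96.2% and 100%. Bisulfite reads show a T allele in the same way as an unmethylated C, and the genotypes of the animals were not analysed here. At position 43489241 of chromosome 13, with 2 neighbours, sperm was at 8.33% and 0%, monocytes were at 100% in both and fibroblasts at 68.8% and 96.2%.

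At 4 of the 8, the bulls disagreed, with 1 sperm library at 20% or more. Position 9427133 of chromosome 8, with 4 neighbours at 96.3% to 100% in sperm, was at 50% in sperm replicate 1 (6 reads) and 0% in replicate 2 (21 reads). The values at position 38168093 of chromosome 6 were 42.9% (7 reads) and 0% (11 reads). At position 80204889 of chromosome 13 they were 28.6% and 0%. The reverse order was seen at position 88138579 of chromosome 10, at 0% in replicate 1 and 36.4% in replicate 2, with 22 reads each. In the larger group of 48 scattered CpGs whose neighbours were above 80% on average in all 3 cell types, 34 (70.8%) had a sperm library at 20% or more.

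The opposite surroundings, neighbours all below 20% in all 3 cell types, were found at 14 scattered CpGs. Position 46265067 of chromosome 14 had the most neighbours, 18, and none of them exceeded 2.5% (sperm), 8.33% (monocytes) or 15.6% (fibroblasts). The CpG itself was at 0% and 5.56% (sperm), 100% and 90.9% (monocytes), and 66.7% and 100% (fibroblasts). It is a methylated point of somatic cells within an unmethylated stretch. At position 65324882 of chromosome 10, with 9 neighbours of at most 5.88%, sperm was at 3.57% and 0%, monocytes at 87.5% and 91.7% and fibroblasts at 81.2% and 89.1%. At position 71643100 of chromosome 14, with 7 neighbours of at most 4%, sperm was at 0% and 10%, both monocyte libraries at 100% and fibroblasts at 100% and 87.5%.

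Another 3 of the 14 lay together on chromosome 11. Position 101672763 had 13 such neighbours and was at 0% and 11.1% (sperm), 76.5% and 85% (monocytes), and 91.3% and 95.2% (fibroblasts). Position 101672801 was at 0% and 22.2% (sperm), 93.3% and 100% (monocytes), and 69.6% and 100% (fibroblasts). Position 101672857 was at 0% in both sperm libraries, 100% in both monocyte libraries and 87% and 95.2% in fibroblasts. Sperm replicate 1 covered each of the 3 with 6 reads and replicate 2 with 18, and short fragments of this kind can carry all 3 CpGs. They may therefore be close to 1 observation.

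The most deeply read scattered CpGs were of the common kind, with partly methylated surroundings. Position 71932758 of chromosome 7, with 299 reads in all, was at 12% and 20.4% (sperm), 87% and 90.6% (monocytes), and 93.9% and 84.9% (fibroblasts). Its 10 neighbours spanned 5.21% to 43.1% in sperm and 27.8% to 97.9% in monocytes. At position 478320 of chromosome 14 (296 reads), sperm was at 11.4% and 3.57%, monocytes at 92.9% and 100% and fibroblasts at 94% and 92.3%. Position 37624522 of chromosome 27 (295 reads) was at 20% and 17.3% (sperm), 90.6% and 91.1% (monocytes), and 83.3% and 83.6% (fibroblasts). Position 105908227 of chromosome 7 (294 reads) had 16.7% and 12.7% (sperm), 94.4% and 93.8% (monocytes), and 97.4% and 79.5% (fibroblasts). None of the 4 was fully unmethylated in either sperm library. The rule holds mean coverage below 50 reads, so that these 4 lie next to its upper limit and do not stand for the set.

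Distances to clustered CpGs are given for scattered CpGs only, and do not show whether these lay farther away than other eligible CpGs. The rule itself limits the qualifying CpGs within 500 bp. The median distance to the nearest clustered CpG was 102596 bp, and 5462 (82.2%) were more than 10 kb away. Within 500 bp of a clustered CpG lay 133 (2%), and a further 563 (8.47%) lay within 2000 bp. Grouped with gaps of at most 2000 bp, the scattered CpGs formed 3742 groups, of which 1841 held a single one and the longest held 7. Of the 2529 windows of 1 Mb with an eligible CpG, 1409 held a scattered CpG, and 460 of these held no clustered CpG.

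Relative to what RRBS covered, scattered CpGs were spread over all 29 autosomes, at 4.37 per 1000 eligible CpGs overall. The rate ran from 2.93 on chromosome 5 to 8.55 on chromosome 8 and 12.7 on chromosome 27. On the last 2, a single window of 1 Mb held many of them, 82 of 334 on chromosome 8 and 80 of 296 on chromosome 27. Chromosome 27 was also the richest in clustered CpGs (60.8 per 1000), but chromosome 8 was not (26.3 per 1000, against a median of 30.7 over chromosomes).

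**Figure D5:**
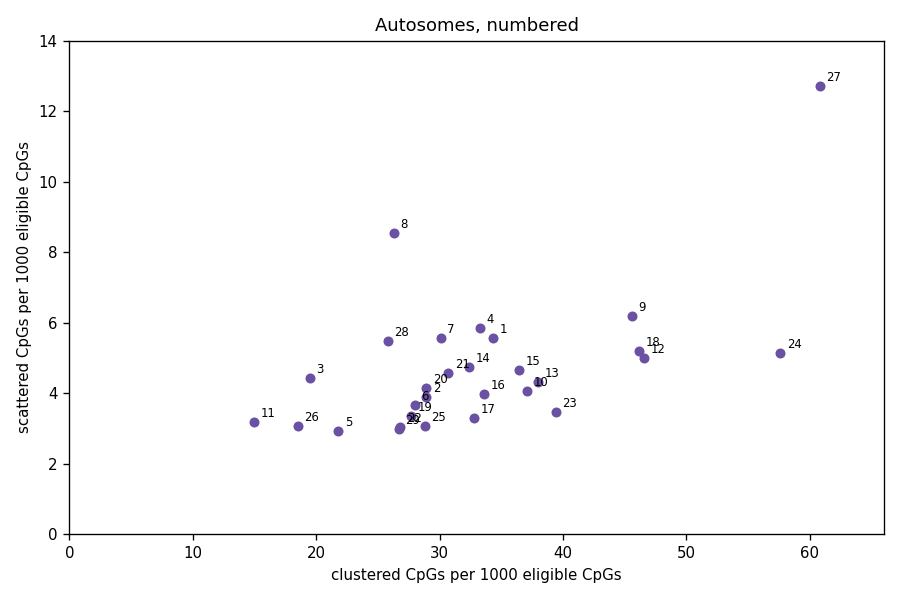
Scattered CpGs per 1000 eligible CpGs (y axis) against clustered CpGs per 1000 eligible CpGs (x axis), with 1 point per autosome, numbered. Chromosomes 8 and 27 are highest in scattered CpGs, at 8.55 and 12.7, but differ in clustered CpGs, at 26.3 and 60.8.

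Several windows held many scattered CpGs. They are described because of their counts. Between 74 and 75 Mb of chromosome 8, 82 scattered CpGs and no clustered CpG lay among 1186 eligible CpGs, between positions 74492328 and 74802994. Their medians were 12.9% and 13.3% (sperm), 91.7% and 93% (monocytes), and 86.8% and 87.3% (fibroblasts). The non-qualifying CpGs of the window had a sperm median of 13.8%, a monocyte median of 82.5% and a fibroblast median of 61.5%. Of these CpGs, 60.1% were below 20% in sperm. Coverage of the scattered CpGs there (median of the mean over libraries, 23.2 reads) was close to that of the other CpGs (22 reads).

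Between 28 and 29 Mb of chromosome 27, 80 scattered and 12 clustered CpGs lay among 1390 eligible CpGs, with scattered medians of 12.5% and 13.7% in the sperm libraries. Between 82 and 83 Mb of chromosome 3, 50 scattered and 24 clustered CpGs were found, with 12.9% and 10.3% in sperm. These 3 windows shared sperm values nearer to the limit than the 5.56% of the whole set. They held 212 scattered CpGs (3.19%). By contrast, in the first Mb of chromosome 14, where 47 scattered and 111 clustered CpGs lay, the scattered medians were 1.23% and 0% in sperm. Gene names at these positions are not given here.

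Scattered CpGs were more frequent in the first Mb of chromosomes, where the centromeres of bovine autosomes lie, and less frequent at the ends. The first Mb held 251 scattered CpGs (3.78%), against 1.25% of clustered and 1.29% of eligible CpGs. Between 1 and 5 Mb the excess was absent, with 5.07% of scattered, 6.06% of clustered and 5.64% of eligible CpGs. Over the whole first 5 Mb the shares were 8.84%, 7.31% and 6.93%. On 20 of the 29 autosomes the rate in the first Mb was above that of the rest of the chromosome. Chromosome 14 with 47 and chromosome 2 with 29 held the most. Without these 2 chromosomes the shares were 2.82% of scattered, 1.08% of clustered and 1.27% of eligible CpGs. The last Mb held 5.58% of scattered, 10.9% of clustered and 8.24% of eligible CpGs. The last 5 Mb held 19.4% of scattered CpGs, against 35.3% of clustered and 26% of eligible CpGs.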

How the data were processed

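The 6 RRBS libraries (2 each of sperm, monocytes and fibroblasts) were grouped by labelled cell type. The authors sequenced MspI fragments as 75 bp paired-end reads. The submitters' processing notes name Trim Galore 0.3.7, Bismark 0.14.3 and methylKit, and the UMD3.1 assembly. Each deposited table lists the count of reads covering every CpG, without normalization, and the methylated and unmethylated share as a percent of these reads. No table lists 2 adjacent positions, so that each CpG was taken as 1 entry.

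Methylated reads were recovered as the nearest whole number to coverage times percent. Autosomes 1 to 29 were analysed. CpGs were selected, and neighbours counted, as described above. The members and the distance lists were chosen with earlier results of these data known. CpGs outside the coverage rule were read in the same libraries. Held-out replicates gave percentages that the choice had not used. Library means were compared by exact two-sided permutation over libraries, each from a different animal. Named CpGs were those with the most neighbours all above 80% or all below 20%, the highest coverage, or values nearest a limit. Gene lists were not used, as no annotation of UMD3.1 was given. Scripts ran in Python 3.11.15 with numpy 2.4.6 and were tested on simulated data. Alternatives changed coverage, limits, windows, flanks and libraries.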

Additional observations from a re-analysis of the deposited data

How the results depend on the processing

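The number of scattered CpGs was 6648, stayed within 1.5 times this value under 12 alternatives, from 6647 to 7639 when 1 library was left out, and was 2155 when no other qualifying CpG was allowed. The flank difference of -51.4 points kept its sign in all 19 alternatives, from -63.8 with limits of 10% and 90% to -39.6 at 291 to 500 bp, and from -53.2 to -48.3 when 1 library was left out. The contrast of scattered against clustered flanks, 20.8 points, lay between 20.5 and 23.4 points without 1 library. It was 5.86 points at 291 to 500 bp and reversed farther out, to -11.1, -27.8 and -27.8 points at 501 to 1000, 1001 to 2000 and 2001 to 5000 bp (-8.02, -26.1 and -28.7 away from clustered CpGs), ranges added after seeing the data.

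The share of scattered CpGs with neighbours methylated in sperm was 1.09% (69 of 6332, Wilson interval 0.862% to 1.38%). This interval takes the CpGs as independent, although nearby scattered CpGs share reads and neighbours, and does not cover variation between animals. The share moved to 0.317% with limits of 10% and 90%, 2.96% with no other qualifying CpG allowed and 0.81% with the mean of library percentages. When 1 library was left out, it lay between 1.21% and 4.97%. The 2 highest values were those without a sperm library, 3.67% without replicate 1 and 4.97% without replicate 2. Of CpGs chosen on replicate 1, 54% met the limits in replicate 2 at 10 reads or more and 36.5% with limits of 10% and 90%, where 3.64% and 1.81% of eligible CpGs did. In the reverse direction the shares were 50.2% and 36.9%, with 3.54% and 1.85%.

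The replicate numbers name different animals and pair nothing. Differences between replicates correlated over eligible CpGs by 0.00339 (sperm and monocytes), 0.00143 (sperm and fibroblasts) and -0.0041 (monocytes and fibroblasts). With the replicate block, the difference was -51.4 points and the contrast 20.8 points, both with an exact permutation p of 0.111, the smallest that the block allows. At a coverage of 5 reads, 1 methylated read moves a CpG by 20 points, so that single CpGs are coarse.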

Other observations

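The scattered CpGs at which the 2 bulls differed most were all higher in the same library. At 13 of them (0.196%, against 0.628% of all eligible CpGs) the sperm libraries differed by 50 points or more, and sperm replicate 1 was the higher at each, with 50% to 63.6%. Replicate 2 was at 0% at 12 of the 13. Replicate 1 also had the lower coverage at all 13. The rule holds the summed sperm percent below 20%, so that a gap of 50 points is possible only where the higher library has fewer reads. The rule thus fixes this coverage pattern and limits the share of 0.196%, which does not show closer agreement between the bulls. Differences of 20 points or more were seen at 586 scattered CpGs (8.81%, against 3.78% of all eligible CpGs), with replicate 1 higher at 350 and replicate 2 at 236.

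The deepest of the 13 was position 120823501 of chromosome 3, at 58.6% of 29 reads in replicate 1 and 8.33% of 120 reads in replicate 2. Its monocyte libraries were at 98.4% and 100%, and both fibroblast libraries at 100%. At position 81293526 of chromosome 9 the sperm libraries were at 50% of 22 reads and 0% of 36 reads, and at position 54493502 of chromosome 18 at 50% of 22 reads and 0% of 40 reads.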
